A study of Mus musculus with 4 samples.

Results

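The genes that build cholesterol and fatty acids under the control of the sterol regulatory element-binding proteins (SREBP) were examined in alveolar macrophages (AM), the resident phagocytes of the airspace, from WT and TREM2-/- mice. The list held 38 genes picked by their role: the steps that make mevalonate and the isoprenoid units, the squalene and later sterol steps with the sterol carrier *Stard4*, the proteins that control SREBP, and the genes that supply, build and desaturate fatty acids. For 37 of the 38, at least 1 probe set carried that gene symbol and no other, and where several did (4 genes) the one with the highest mean value over the 4 arrays was used. These 37 genes stood among 19946 genes measured by the same rule. The cytosolic thiolase gene *Acat2*, the remaining one, had no probe set listed under its symbol alone and was not analysed here.

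Total RNA of untreated AM, obtained by bronchoalveolar lavage, was hybridised to 4 arrays, 2 per genotype, each from pooled mice of 8 to 10 weeks of age. The WT mice were C57/Blk6, and the TREM2-/- mice, which carry the mutation in every cell and not in AM alone, had been backcrossed 10 times to that strain. The study's methods state that WT mice were bought from a vendor and that all mice were bred in 1 facility, so the genotypes were separate lines and not littermates, and the number of mice in each pool was not given in the sources used here. The arrays of 1 genotype correlated at 0.994 (WT) and 0.995 (TREM2-/-) over all probe sets, and arrays of different genotypes at 0.992 to 0.993. *Trem2* itself read 9.58 and 9.74 (log2) on the WT arrays and 7.64 and 7.45 on the TREM2-/- arrays. With 2 arrays a group, an exact permutation test of 1 gene cannot go below p = 0.333, so single genes were tested with limma, which pools the spread over all genes. Its p-values measure the spread between these arrays.

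Cells make sterols and fatty acids from acetyl-CoA. The SREBP precursors sit in the endoplasmic reticulum membrane bound to SCAP, an escort protein. When sterols are scarce SCAP carries them to the Golgi, where a pair of proteases frees the part that enters the nucleus, and when sterols are plentiful the INSIG proteins hold SCAP back. SREBP2 acts mostly on the sterol genes and SREBP1c mostly on the fatty acid genes, with overlap. In the lung, AM take up and break down surfactant, a material rich in phospholipid and cholesterol, so they meet lipid from outside as well as making their own.

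The stearoyl-CoA desaturases *Scd1* and *Scd2* and the acetoacetyl-CoA synthetase *Aacs* were lower in TREM2-/- AM, by 1.93-fold, 1.63-fold and 1.66-fold, and most other genes of the list had smaller differences of the same sign. By limma, 3 of the 37 genes fell and 0 rose at an adjusted p below 0.05, where 0.135% of all genes fell and 0.431% rose. No member was higher in any other fit that was run, and at an unadjusted limma p below 0.05 1 member was higher. Significance analysis of microarrays (SAM), the method the study names, called 2 members lower, *Scd1* and *Scd2*, against 0.0953% of all genes. The log2 fold change (TREM2-/- minus WT) was below 0 for 32 of the 37 genes, as it was for 57.3% of all genes. Both TREM2-/- arrays lay below both WT arrays for 30 of the 37 genes and above both for 1 (*Lpin1*), against 25.4% and 17.4% of all genes. At an unadjusted limma p below 0.05, 25 members were lower, against 6.9% of all genes. The median log2 fold change was −0.26 over the list and −0.02 over all genes. The list was chosen with earlier results of these data known, so these shares describe it and do not test it. The number of calls depended on how the spread was modelled: a limma fit with an intensity trend and robust variance called 23 members lower, against 1.45% of all genes. That fit lets the spread vary with intensity. Its share covers genes of every level, while all 37 members lay above the median probe set, so it is not a share of genes of like level.

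**Figure D1:**
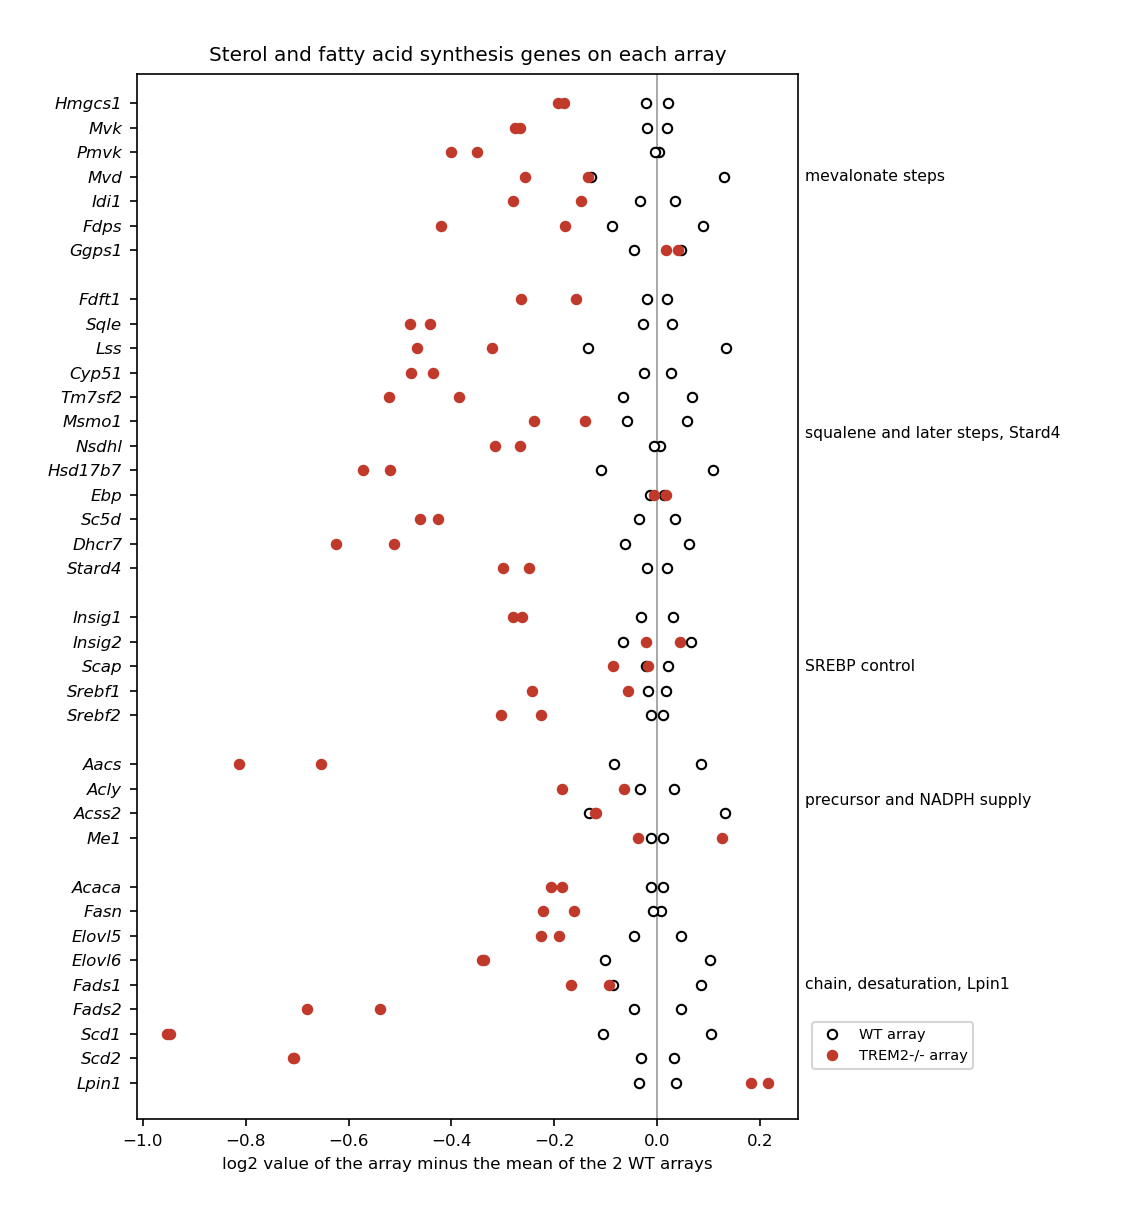
Log2 value of each of the 37 genes on each array after subtracting the mean of the 2 WT arrays of that gene (horizontal axis), in pathway order. Open circles are WT arrays and filled circles TREM2-/- arrays; the filled circles lie left of both open circles for 30 genes, furthest for *Scd1*, and right of both for *Lpin1*.

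All 37 genes were well expressed, with values from 7.02 to 12.80 (log2) that lay above the median probe set (5.84 to 5.86) on every array. The standard error of a log2 fold change ran from 0.07 to 0.11 across them. The smallest change that passed limma anywhere among the 19946 genes was 0.54 in size on the log2 scale, a size that only *Scd1*, *Aacs*, *Scd2*, *Fads2*, *Dhcr7* and *Hsd17b7* reached within the list. In pooled lavage cells, fewer cells of a type and less RNA per cell cannot be told apart.

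**Figure D2:**
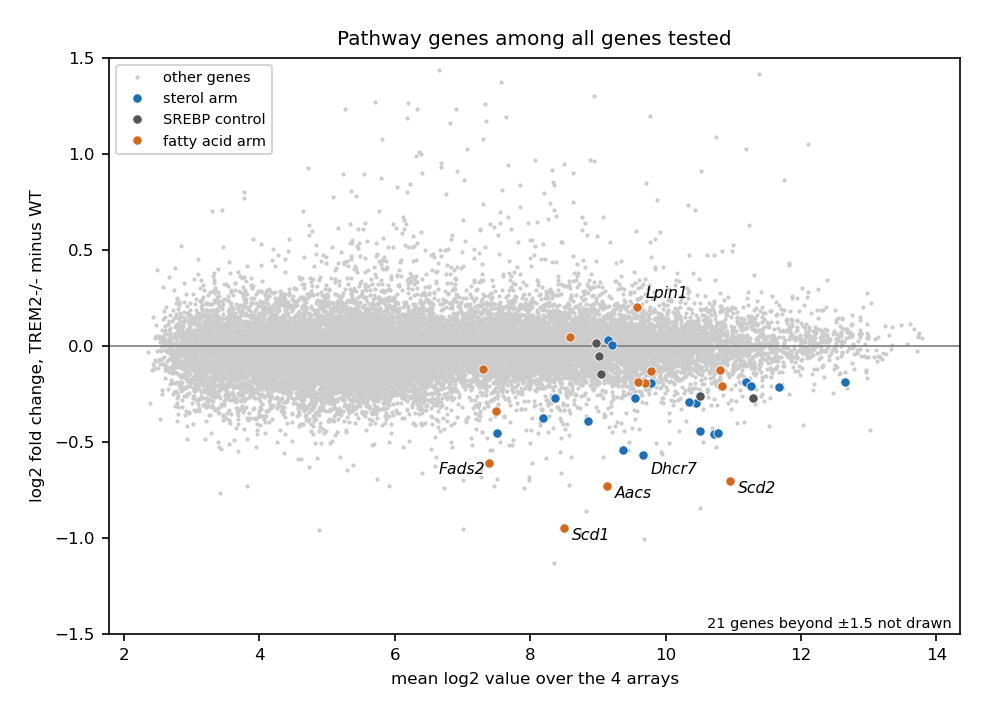
Log2 fold change (TREM2-/- minus WT) against the mean log2 value over the 4 arrays for every gene tested (grey) and for the sterol arm (blue), the SREBP control genes (dark grey) and the fatty acid arm (orange); 21 genes beyond the vertical axis are not drawn. *Scd1*, *Aacs* and *Scd2* lie lowest of the coloured points, at −0.95, −0.73 and −0.71, and most sterol genes lie between −0.57 and −0.19.

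The mevalonate steps turn acetyl-CoA into the isoprenoid units from which sterols, dolichol and prenyl groups are made. None of the 7 measured genes passed limma in either direction, and their median log2 fold change was −0.21. Both TREM2-/- arrays lay below both WT arrays for 6 of them, against 25.4% of all genes. The fit with an intensity trend and robust variance called 5 of the 7 lower, all but *Mvd* and *Ggps1*, against 1.45% of all genes. The phosphomevalonate kinase *Pmvk* had the largest difference of the 7. It read 8.38 and 8.37 on the WT arrays and 8.02 and 7.97 on the TREM2-/- arrays, a log2 fold change of −0.38 ± 0.07 (SE, n = 2 per genotype, limma adjusted p = 0.13). The arrays of each genotype lay within a narrow band and the bands were apart. *Fdps*, which joins isoprenoid units into farnesyl diphosphate, read 10.68 and 10.51 in WT AM and 10.42 and 10.18 in TREM2-/- AM, a log2 fold change of −0.30 ± 0.11 (adjusted p = 0.39). Here the arrays within each genotype differed by more than the lower WT array and the higher TREM2-/- array did (10.51 and 10.42). The log2 fold change was −0.27 for the mevalonate kinase *Mvk*, −0.21 for the isopentenyl-diphosphate isomerase *Idi1*, −0.20 for the decarboxylase *Mvd* and −0.19 for the HMG-CoA synthase *Hmgcs1*. For *Mvd* the separation was minimal, since its lower WT array and its higher TREM2-/- array both read 9.75. *Ggps1*, whose product leads to geranylgeranyl groups and away from sterols, had a log2 fold change of 0.03 with overlapping arrays.

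The squalene and later steps commit isoprenoids to sterol and finish cholesterol. None of these 12 genes passed limma either, but their median log2 fold change of −0.42 was the lowest of the 5 branches. Both TREM2-/- arrays lay below both WT arrays for 11 of them, against 25.4% of all genes. The fit with an intensity trend and robust variance called 11 of the 12 lower, all but *Ebp*, against 1.45% of all genes. *Dhcr7*, the reductase of the last step in 1 of the routes to cholesterol, read 10.01 and 9.88 in WT AM and 9.43 and 9.32 in TREM2-/- AM. Its log2 fold change was −0.57 ± 0.08 (95% interval −0.78 to −0.36, limma adjusted p = 0.068). *Hsd17b7*, a ketoreductase that acts while methyl groups are removed from the sterol ring, read 9.76 and 9.54 against 9.13 and 9.07, a log2 fold change of −0.55 ± 0.09 (adjusted p = 0.10). In both genes the lower WT array stood clear of the higher TREM2-/- array.

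Next in size were 4 enzymes spread along the route. The squalene epoxidase *Sqle* had a log2 fold change of −0.46 (adjusted p = 0.078), the lanosterol demethylase *Cyp51* one of −0.46 (adjusted p = 0.080), the sterol reductase *Tm7sf2* one of −0.45 (adjusted p = 0.14) and the sterol desaturase *Sc5d* one of −0.44 (adjusted p = 0.089). The lanosterol synthase *Lss*, which closes the ring, was at −0.39, and the sterol dehydrogenase *Nsdhl* at −0.29. *Fdft1*, which makes squalene, was at −0.21 and the methyl oxidase *Msmo1* at −0.19. *Stard4*, which moves cholesterol between membranes, was at −0.27. *Ebp*, the sterol isomerase of the same route, read 9.19 and 9.22 against 9.22 and 9.20, a log2 fold change of 0.01 (95% interval −0.17 to 0.18).

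Promoter letters were read to see what the sterol genes share beyond their pathway, which the choice of genes did not use. RefSeq windows of the build GRCm38.p6, from 250 bases before to 50 after a start site, were at hand for 30 of the 37 genes (39 windows), and none was used for *Fdps*, *Fdft1*, *Sqle*, *Stard4*, *Fads1*, *Scd1* or *Scd2*. The box CCAAT, which the factor NF-Y binds next to SREBP sites, was searched on both strands and is contained in none of the other motifs searched. It stood in at least 1 window of 15 of 15 sterol arm genes, of 4 of 5 control genes (all but *Scap*) and of 5 of 10 fatty acid arm genes, against 41.7% of 15619 genes with a window. By window, it was in 83.3% of those of the sterol arm, in 45.5% of those of the fatty acid arm and in 37.4% of all windows. The classical sterol regulatory element, spelled TCACNCCAC and searched on both strands, was in the window of *Hmgcs1* alone among the 30 genes (3.33%), at −137 from the start, and in windows of 1.4% of all genes. The E-box CACGTG, which SREBP1 can also bind, was in windows of 6 of the 30 genes (*Dhcr7*, *Elovl5*, *Hsd17b7*, *Insig1*, *Sc5d* and *Scap*), against 9.49% of all genes. These counts describe letters in a short window and not bound sites. The windows below are those of *Hmgcs1*, with the element and 4 boxes, of *Mvk*, with 5 boxes, of *Dhcr7* and *Hsd17b7*, the sterol genes with the largest differences, and of *Aacs*, which fell and whose window held none of the 4 motifs searched, the last of them the GC box GGGCGG (22 of 30 genes, against 52.9% of all genes). For *Dhcr7* the window shown is 1 of 3. Capitals mark the sterol regulatory element and the CCAAT box, which reads ATTGG where it lies on the opposite strand.
*Hmgcs1*, chr13:119690101-119690400, plus strand: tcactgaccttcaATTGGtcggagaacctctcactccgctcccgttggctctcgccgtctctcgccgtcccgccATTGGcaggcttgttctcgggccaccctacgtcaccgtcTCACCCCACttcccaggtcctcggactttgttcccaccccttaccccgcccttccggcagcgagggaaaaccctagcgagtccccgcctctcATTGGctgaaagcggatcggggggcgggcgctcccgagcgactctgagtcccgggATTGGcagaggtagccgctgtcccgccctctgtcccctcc
*Mvk*, chr5:114444019-114444318, plus strand: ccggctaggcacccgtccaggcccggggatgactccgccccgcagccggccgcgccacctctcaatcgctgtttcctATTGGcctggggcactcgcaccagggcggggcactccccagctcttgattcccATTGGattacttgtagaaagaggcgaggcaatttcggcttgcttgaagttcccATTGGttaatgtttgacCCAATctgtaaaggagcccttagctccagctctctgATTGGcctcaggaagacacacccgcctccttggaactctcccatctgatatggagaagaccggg
*Dhcr7*, chr7:143829964-143830263, plus strand: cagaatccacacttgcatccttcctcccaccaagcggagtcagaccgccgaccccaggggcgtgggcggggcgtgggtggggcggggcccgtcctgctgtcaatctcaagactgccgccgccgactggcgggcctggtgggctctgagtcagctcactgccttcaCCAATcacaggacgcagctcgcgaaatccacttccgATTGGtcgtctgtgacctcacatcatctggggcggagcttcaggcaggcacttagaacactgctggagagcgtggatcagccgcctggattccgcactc
*Hsd17b7*, chr1:169969156-169969455, minus strand: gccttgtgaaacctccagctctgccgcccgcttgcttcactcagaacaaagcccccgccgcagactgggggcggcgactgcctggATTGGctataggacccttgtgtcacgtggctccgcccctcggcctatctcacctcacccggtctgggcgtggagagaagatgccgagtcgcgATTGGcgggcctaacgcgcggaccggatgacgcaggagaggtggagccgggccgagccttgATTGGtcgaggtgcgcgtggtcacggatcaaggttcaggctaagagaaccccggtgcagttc
*Aacs*, chr5:125475623-125475922, plus strand: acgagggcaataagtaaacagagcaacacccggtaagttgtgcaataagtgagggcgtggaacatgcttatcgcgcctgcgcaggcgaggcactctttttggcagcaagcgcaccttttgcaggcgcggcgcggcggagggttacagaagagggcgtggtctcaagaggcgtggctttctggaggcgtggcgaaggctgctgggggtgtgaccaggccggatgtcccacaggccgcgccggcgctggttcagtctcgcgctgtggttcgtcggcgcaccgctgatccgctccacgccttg

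The control genes set how much SREBP reaches the nucleus, and none of the 5 passed limma. *Insig1*, the retention protein that is itself an SREBP target, read 11.39 and 11.46 in WT AM and 11.14 and 11.16 in TREM2-/- AM, a log2 fold change of −0.27 ± 0.07 (adjusted p = 0.26). *Srebf2*, which encodes SREBP2, read 10.63 and 10.65 against 10.41 and 10.33, a log2 fold change of −0.26 ± 0.07 (adjusted p = 0.27). Both genes had their TREM2-/- arrays below their WT arrays, and the fit with an intensity trend and robust variance called both lower. *Srebf1*, which encodes both SREBP1 forms, read 9.10 and 9.14 against 9.06 and 8.87, a log2 fold change of −0.15 ± 0.09 (adjusted p = 0.58), with the arrays apart by little. *Scap*, the escort, read 9.07 and 9.02 against 9.03 and 8.96, which gives −0.05 for the log2 fold change (95% interval −0.23 to 0.13). *Insig2*, the retention protein that does not depend on SREBP in the same way, read 9.03 and 8.89 against 8.94 and 9.01, a log2 fold change of 0.01 (95% interval −0.19 to 0.21). The genotypes overlapped at *Scap* and *Insig2*. The transcript level of a precursor does not measure its cleavage, which these arrays did not record.

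**Figure D3:**
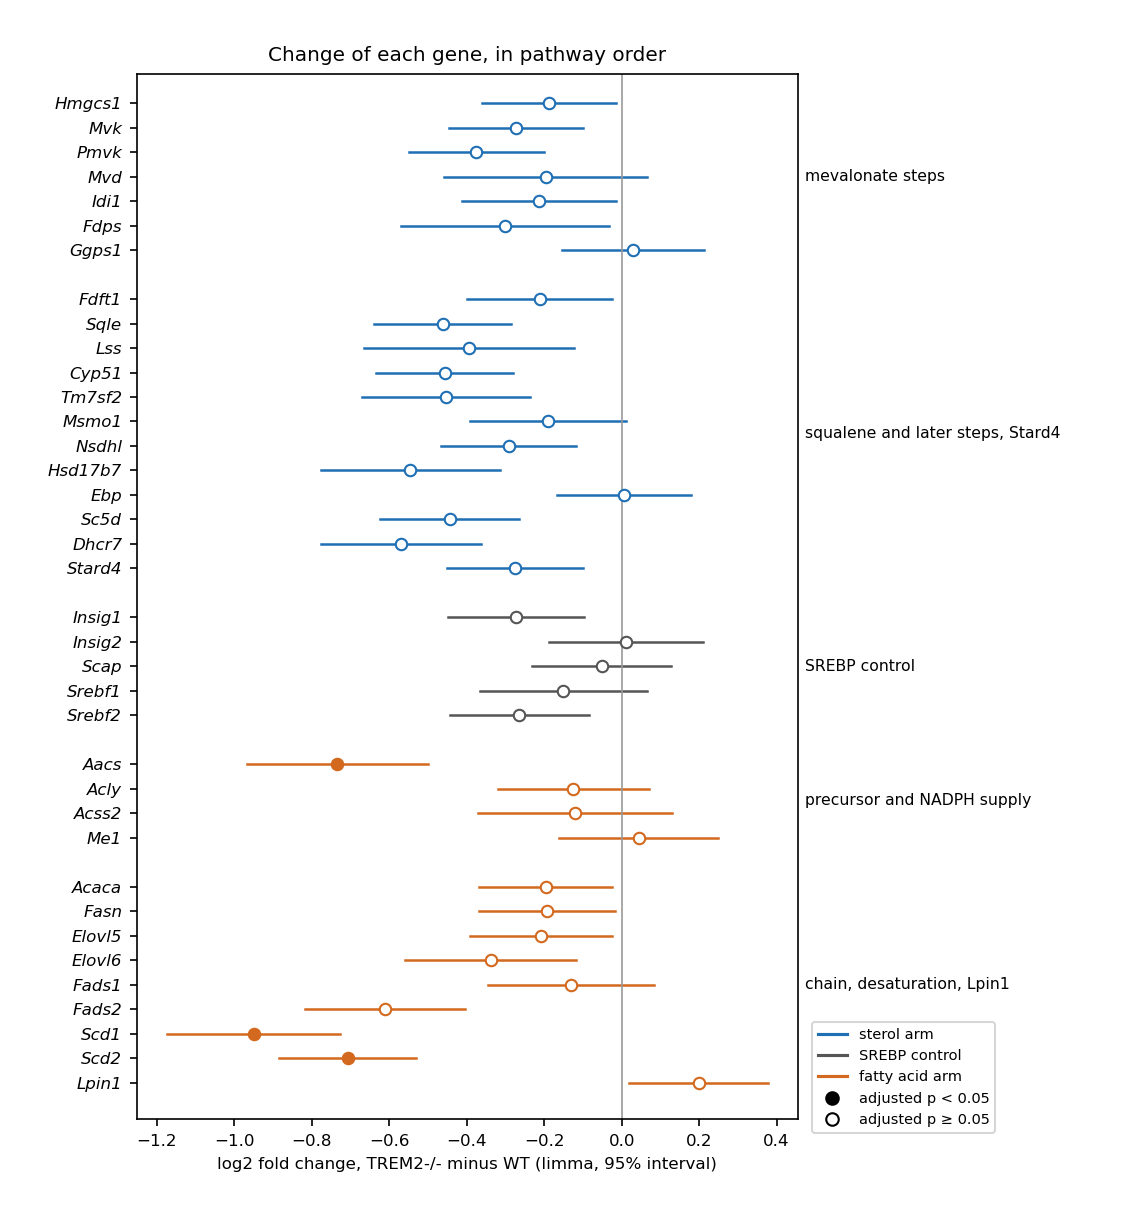
Log2 fold change (TREM2-/- minus WT) of the 37 genes with its 95% interval from limma, in pathway order and coloured by arm; filled points had an adjusted p below 0.05. *Aacs*, *Scd1* and *Scd2* are the 3 filled points, and *Ggps1*, *Ebp*, *Insig2* and *Me1* lie at 0.01 to 0.04.

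The supply genes provide acetyl-CoA units and NADPH. *Aacs*, which turns the ketone body acetoacetate into acetoacetyl-CoA for lipid synthesis in the cytosol, fell. It read 9.58 and 9.41 in WT AM and 8.84 and 8.68 in TREM2-/- AM, a log2 fold change of −0.73 ± 0.10 (95% interval −0.97 to −0.50, limma adjusted p = 0.045). The genotypes were far apart beside the difference within each, but SAM did not call the gene, and after leaving out any 1 array its adjusted p was 0.10 to 0.26. *Acly*, which cuts citrate into acetyl-CoA and is the main cytosolic source of it, read 10.89 and 10.83 against 10.80 and 10.68, a difference of −0.13 on the log2 scale (95% interval −0.32 to 0.07, adjusted p = 0.61). The acetate-using synthetase *Acss2* had a log2 fold change of −0.12 and the NADPH-forming malic enzyme *Me1* one of 0.04, both with overlapping arrays.

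Of the 9 genes that build, elongate and desaturate fatty acids, counting the phosphatidate phosphatase *Lpin1*, *Scd1* and *Scd2* fell. Both encode enzymes that put a double bond into stearoyl-CoA and palmitoyl-CoA and so make monounsaturated fatty acids. *Scd1* read 9.08 and 8.87 in WT AM and 8.03 on both TREM2-/- arrays. Its log2 fold change was −0.95 ± 0.09 (95% interval −1.17 to −0.73, limma adjusted p = 0.016), the tenth lowest of all 19946 genes. *Scd2* read 11.34 and 11.28 in WT AM and 10.60 on both TREM2-/- arrays, a log2 fold change of −0.71 ± 0.07 (95% interval −0.88 to −0.53, limma adjusted p = 0.020). For both desaturases the WT arrays lay well above the TREM2-/- arrays, which were nearly equal. After leaving out 1 array, *Scd1* passed limma in 1 of 4 fits (adjusted p 0.032 to 0.12) and *Scd2* in 0 of 4 (0.081 to 0.15).

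The mouse *Scd* genes lie side by side on chromosome 19 in the order *Scd3*, *Scd2*, *Scd4*, *Scd1*, and are alike in sequence, so a probe set of one may catch transcripts of another. *Scd3* had a log2 fold change of −0.08 between means of 4.77 and 4.69, and *Scd4* one of −0.12 between means of 4.41 and 4.28. Those values lay near the lower quartile of all probe sets (4.39 to 4.40), and their genotypes overlapped.

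The desaturases of polyunsaturated fatty acids, *Fads2* and *Fads1*, are also neighbours on chromosome 19. *Fads2*, the delta-6 desaturase, read 7.74 and 7.65 in WT AM and 7.02 and 7.16 in TREM2-/- AM, a log2 fold change of −0.61 ± 0.08 (95% interval −0.82 to −0.40, limma adjusted p = 0.055). It missed the threshold narrowly and passed it after quantile normalization. *Fads1*, the delta-5 desaturase, had a log2 fold change of −0.13 (adjusted p = 0.63), and the difference between the neighbours was not tested. The elongase *Elovl6*, which takes palmitate to stearate, was at −0.34 (adjusted p = 0.26) and *Elovl5*, which elongates polyunsaturated chains, at −0.21. The acetyl-CoA carboxylase *Acaca*, which makes the malonyl units, and the fatty acid synthase *Fasn* were at −0.20 and −0.19 (adjusted p = 0.38 and 0.40). *Lpin1* read 9.52 and 9.45 in WT AM and 9.66 and 9.70 in TREM2-/- AM, a log2 fold change of 0.20 ± 0.07 (adjusted p = 0.40). It was the one gene of the list with both TREM2-/- arrays above both WT arrays.

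The sterol arm (19 genes, the mevalonate and later sterol steps) and the fatty acid arm (13 genes) had nearly the same mean log2 fold change, −0.31 each, but different spreads. Sterol genes ranged from −0.57 to 0.03 with an SD between genes of 0.17 and a median of −0.29. Fatty acid genes ranged from −0.95 to 0.20 with an SD of 0.34 and a median of −0.20. Without *Scd1*, *Scd2* and *Aacs*, a choice made after seeing their values, the fatty acid arm had a mean of −0.17. In the sterol arm 17 of 19 genes had TREM2-/- arrays below WT arrays, all but *Ggps1* and *Ebp*, and in the fatty acid arm 10 of 13. Over all genes this share was 25.4%. Limma called 0 sterol genes and 3 fatty acid genes lower, against 0.135% of all genes. The 3 include *Aacs*, a supply gene assigned to the fatty acid arm when the list was made, and moving it to the sterol arm was not tried. The fit with an intensity trend and robust variance called 16 of 19 sterol genes and 5 of 13 fatty acid genes lower, against 1.45% of all genes. The mean log2 value of the sterol arm was 10.15 and 10.07 on the WT arrays and 9.82 and 9.80 on the TREM2-/- arrays. That of the fatty acid arm was 9.42 and 9.30 on the WT arrays and 9.04 and 9.05 on the TREM2-/- arrays. The difference between the arms on an array (fatty acid minus sterol mean) was −0.74 and −0.77 in WT AM and −0.77 and −0.75 in TREM2-/- AM, so the genotypes overlapped in it. Genes are not replicates, and no test was run on the arms.

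Related genes outside the list had medians nearer to 0. Of 6 measured genes for SREBP processing and turnover 0 passed limma or SAM and the median log2 fold change was 0.01. Of 19 other elongation, desaturation and glycerolipid genes 0 passed limma or SAM, the median was −0.08 and the range ran from −0.18 to 0.11. For 17 of these 19 the log2 fold change was below 0, against 57.3% of all genes. Both TREM2-/- arrays lay below both WT arrays for 6 of the 19, a share near the 25.4% of all genes. Of 12 genes for isoprenoid side branches and sterol handling 0 passed limma or SAM and the median was −0.00. At an unadjusted limma p below 0.05, 0, 0 and 1 genes of these lists were lower and 0 were higher, the 1 being *Tmem97*, a sterol-responsive membrane protein, at −0.24 (adjusted p = 0.33). Among 5 genes of the liver X receptors and their targets, which respond to oxysterols, *Abca1* rose. This exporter of cholesterol read 8.53 and 8.33 in WT AM and 9.09 and 9.11 in TREM2-/- AM, a log2 fold change of 0.67 ± 0.09 (limma adjusted p = 0.049, called by SAM too, and 0.077 to 0.28 with 1 array left out). The ubiquitin ligase *Mylip* was at 0.30, the exporter *Abcg1* at 0.14, the receptor *Nr1h3* at 0.10 and the acyltransferase *Lpcat3* at −0.10, none past the limma threshold. The fit with an intensity trend and robust variance called 2 of the 5 higher, *Abca1* and *Mylip*, against 1.9% of all genes. *Apoe*, the lipoprotein component that is also a liver X receptor target in macrophages, stood in the marker list of interstitial or monocyte-derived macrophages. It rose from 9.39 and 9.41 in WT AM to 11.17 and 10.98 in TREM2-/- AM, a log2 fold change of 1.67 ± 0.09 (limma adjusted p = 0.0015). Targets of these receptors that stood in the synthesis list had the opposite sign. The log2 fold change was −0.15 for *Srebf1*, −0.95 for *Scd1*, −0.71 for *Scd2* and −0.19 for *Fasn*, and of these *Scd1* and *Scd2* passed limma. The 5 genes are therefore only a part of the targets, and receptor activity was not tested.

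**Figure D4:**
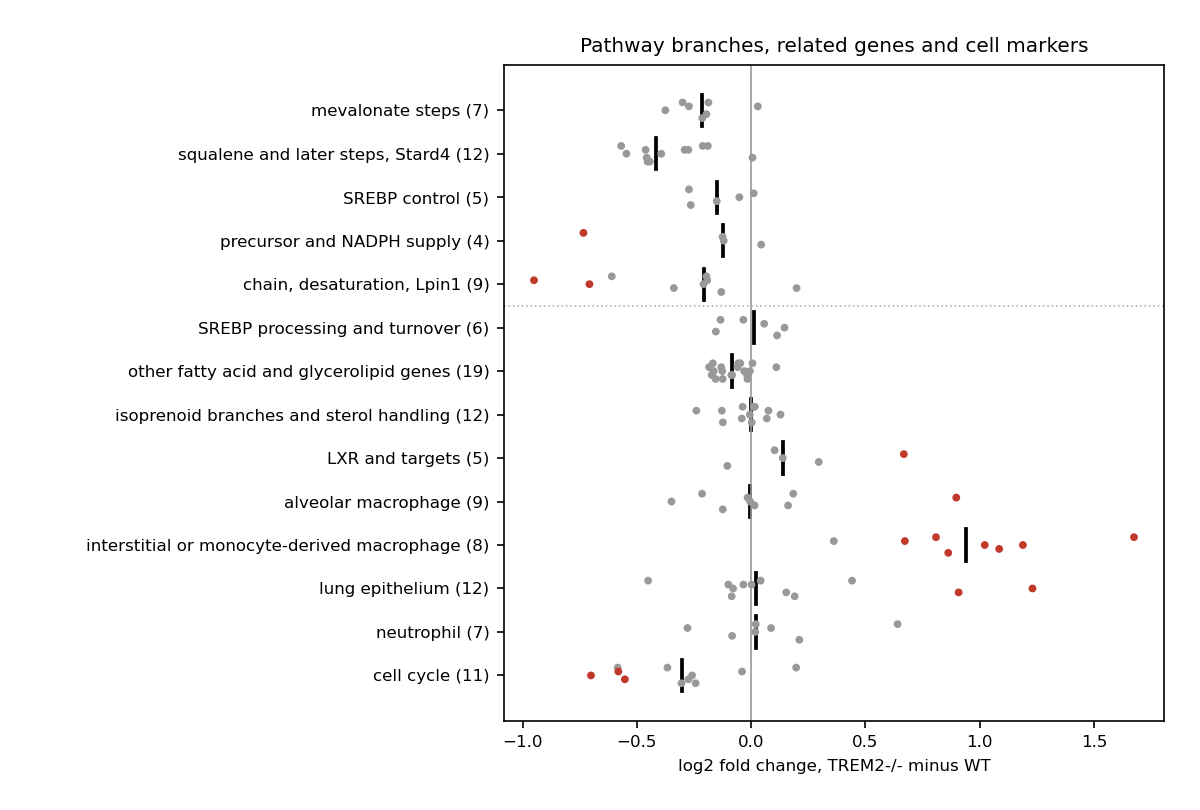
Log2 fold change (TREM2-/- minus WT) of single genes, as points, in the 5 branches of the list (above the dotted line) and in related gene lists and cell markers (below it), with the number of genes measured in parentheses and the median of each as a bar; points in red are genes whose limma adjusted p was below 0.05. The later sterol steps have a median of −0.42, the related pathway lists medians of −0.08 to 0.14, and the interstitial or monocyte-derived macrophage markers one of 0.94.

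Other transcripts moved between the same arrays, where limma called 0.431% of all genes higher and 0.135% lower. Of 9 AM markers 1 rose (*Car4*, 5.81 and 6.10 in WT AM against 6.85 on both TREM2-/- arrays) and 0 fell. The other AM markers read from 8.95 to 12.84, among them *Itgax*, *Chil3*, *Marco*, *Mrc1* and *Pparg*. Both TREM2-/- arrays lay below both WT arrays for *Krt79* (−0.35), *Siglecf* (−0.21) and *Itgax* (−0.12) and above them for *Car4*, *Marco* (0.18) and *Chil3* (0.16). These are 3 and 3 of the 9 AM markers, against 25.4% and 17.4% of all genes. The fit with an intensity trend and robust variance called *Krt79* and *Siglecf* lower and *Car4*, *Marco* and *Chil3* higher, against 1.45% and 1.9% of all genes. The summed linear level of the AM markers was 28586 to 28942 in WT AM and 28625 to 29682 in TREM2-/- AM. Of 8 markers of interstitial or monocyte-derived macrophages 7 rose by limma. The remaining one, *Ms4a7*, missed the threshold but was higher with its arrays apart (0.36, limma adjusted p = 0.16). The summed linear level of the 8 was 6499 to 6850 in WT AM against 13517 to 13928 in TREM2-/- AM. Of 12 markers of lung epithelium, which makes surfactant lipid, 2 rose (*Cldn18* and *Scgb1a1*), with summed levels of 2013 to 2136 against 2153 to 2165. Only 1 of the 12, *Lamp3*, lay below the lower quartile of all probe sets in both genotypes, and the type II cell genes *Napsa* (9.21 to 9.36), *Abca3* (WT mean 8.93) and *Sftpb* (5.78 to 5.93) had log2 fold changes of −0.03, 0.04 and −0.10. The surfactant protein gene *Sftpc* had a log2 fold change of 0.44 (adjusted p = 0.20) and the cadherin *Cdh1* one of −0.45 (adjusted p = 0.16), each with arrays apart, and the intensity trend fit called *Cdh1* lower. Of 7 neutrophil markers 0 passed limma and 1 passed SAM (*Csf3r*, higher), with summed levels of 683 to 741 against 804 to 831, and *Ly6g* and *Retnlg* lay below the lower quartile in both genotypes. Of 11 cell cycle genes 3 fell by limma, *Mcm2* (−0.70), *Mcm6* (−0.58) and *Rrm2* (−0.55), with summed levels of 7301 to 7315 against 5897 to 5968. The median log2 fold change of the 11 was −0.30, and 10 were below 0 (57.3% of all genes), all but *Mki67* (0.20). Both TREM2-/- arrays lay below both WT arrays for 9 of the 11, against 25.4% of all genes. The fit with an intensity trend and robust variance called 6 of the 11 lower, against 1.45% of all genes. With 1 array left out, *Apoe* was the one of these called markers and cell cycle genes that passed limma in 4 of 4 fits, and none of the 3 cell cycle genes passed in any. The part of these markers in the differences of the sterol and fatty acid genes was not tested.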

How the data were processed

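AM from lavage of WT and TREM2-/- mice were profiled on Affymetrix mouse Gene 1.0 ST arrays, 2 per genotype. The authors normalized them together by robust multi-array average (RMA) and deposited 1 log2 value per probe set (35557 rows). The submitters' processing notes name RMA and the build mm9. RMA equalises the distributions of all arrays, so a change shared by all transcripts would not be seen. Precision is limited by the number of arrays, and no batch or scan date was given in the sources used here.

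Probe sets were named from the platform annotation: 21797 had 1 symbol, 1613 several (not used) and 12147 none, and 21698 of those with 1 symbol matched RefSeq. Where a gene had more than 1 probe set (999 genes), the brightest by mean over the arrays represented it, which left 19946 genes. Genotypes, taken from the sample labels, were compared with limma 3.58.1 (lmFit and eBayes, run in R 4.3.3) in two-sided tests, p-values were adjusted by Benjamini-Hochberg across the 19946 genes, and 0.05 was the threshold. SAM (all 6 assignments of arrays to groups, false-discovery rate 5%), the method of the study, was an alternative, with an intensity trend and robust variance, a replicate block, quantile normalization, median centring, a mean log2 value of at least 6, other probe set rules and leaving out each array. The scripts were tested on simulated data with 200 changed genes. All 37 genes were named, and values on every array were given for genes past limma or SAM, for the 2 largest differences of each branch and for the control genes. The gene list, branches and marker lists were chosen with earlier results of these data known. Linear levels are 2 raised to the log2 value. Sums over a marker list and means over an arm combine different probe sets, and bright ones weigh most in a sum. These sums and means, and the difference between the arms, were read between genotypes. Single values were set only against the median or lower quartile of all probe sets.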

Additional observations from a re-analysis of the deposited data

How the results depend on the processing

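The count of members called lower, 3 in limma as described, was 2 in SAM, 3 after median centring and 3 with probe sets averaged per gene. It was 4 after quantile normalization (*Fads2* added) and 4 with the replicate block (*Dhcr7* added). It was 23 with an intensity trend and robust variance and 11 of the 37 when the 10783 genes with a mean log2 value of at least 6 were tested. It was 0 when every probe set was tested and adjusted together, and 0 to 1 with 1 array left out: *Scd1* stayed past the threshold without WT replicate 2, and no member did without any other array. No member was called higher under any of these, and no member changed sign while called. The calls over all genes moved too, from 86 higher and 27 lower to 379 and 290 with the intensity trend, 207 and 150 with the filter, 173 and 19 in SAM, and 21 and 2 over all probe sets. Without 1 array they were 22 to 43 higher and 4 to 7 lower. The median log2 fold change of the sterol arm was −0.33 to −0.28 and that of the fatty acid arm −0.25 to −0.16 over the alternatives run. Arrays with the same replicate number did not deviate together (correlation of deviations −0.05), so the numbers were taken as names. The replicate block called 129 genes in place of 113, and a crossed block, which paired arrays of unlike replicate number, called 154. With 2 pools per genotype the error of each value rests on few arrays, and a difference that missed the threshold is not shown to be absent. The causes of the shifts between fits were not tested.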

Other observations

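Of the 37 genes, 4 had a second probe set under the same symbol. The log2 fold changes (TREM2-/- minus WT) of the used and the other probe set were −0.21 and −0.22 for *Idi1*, −0.21 and −0.34 for *Fdft1*, −0.20 and −0.04 for *Acaca*, and 0.04 and −0.00 for *Me1*. The unused *Fdft1* probe set thus had the larger difference of its pair, and the unused *Acaca* probe set had overlapping genotypes (8.62 and 8.38 in WT AM, 8.42 and 8.51 in TREM2-/- AM).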
